A study of Homo sapiens with 6 samples.

Results

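The tumor suppressor p53 and its negative regulator MDM2 were followed in MRC5 lung fibroblasts through 9 genes, *MDM2*, *MDM4*, *BTG2*, *TP53INP1*, *GDF15*, *FAS*, *ZMAT3*, *RRM2B* and *PHLDA3*. The genes were chosen by symbol, and all 9 were found among the 58676 gene identifiers of the count table. Each of the 9 was among the 19072 genes tested, those whose counts over all libraries reached 10.

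MRC5 is a line of human lung fibroblasts. In all 6 libraries the cells were kept for 24 h in conditioned media (CM) from ATIIER:KRASV12 cells, an alveolar type II (ATII) line carrying a KRASV12 fusion that 4-hydroxytamoxifen (4-OHT) switches on. The donor cells of 3 libraries were controls (control ATII CM), and those of the other 3 had been given 4-OHT for 24 h (4-OHT ATII CM). No TGF-β was added. RAS activation in the donor cells and 4-OHT carried over in the medium cannot be told apart in this design, and the labels do not say whether the 3 libraries of a group came from separate cultures, so p values measure the spread between these libraries.

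p53 is a transcription factor that is kept low by MDM2, a ubiquitin ligase that marks it for degradation, and by MDM4, a relative of MDM2 that binds p53 and blocks its activity. When DNA damage, oncogene activity or other stress frees p53, it binds paired half-sites in DNA and raises genes that halt the cell cycle, repair DNA, supply nucleotides or promote cell death. *MDM2* is itself such a target, which closes a feedback loop, and a number of cell cycle genes are lowered indirectly, through the CDK inhibitor p21 and the DREAM repressor complex.

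Library totals ran from 17691849 to 26389449 counts. All 10 fibroblast markers looked up were tested, with a summed level of 41087 to 44603 CPM (counts scaled by library total and TMM factor) in control ATII CM and 42961 to 44702 CPM with 4-OHT ATII CM. Of 17 alveolar epithelial markers 8 passed the count minimum, and their whole list summed to 18.3 to 19.9 CPM with control ATII CM and 16.4 to 19.96 CPM with 4-OHT ATII CM. Of 4 leukocyte markers 1 was tested, and the list summed to 0.609 to 0.952 CPM with control ATII CM and, higher, to 1.05 to 1.90 CPM with 4-OHT ATII CM. The leukocyte marker tested was *CD14*, at 12, 16 and 19 counts in replicates 1 to 3 of control ATII CM. With 4-OHT ATII CM it had 23, 38 and 49 counts. *PTPRC* and *LYZ* had 2 counts each over all libraries, and *CD3E* had none. The part of *CD14* in the results was not tested. Of the epithelial markers, *KRT19*, *MUC1*, *KRT7* and *ABCA3* had the most counts over all libraries (954, 933, 207 and 147) and were counted in each library. *SFTPA1*, *SFTPA2* and *ESRP1* had no count, and *CDH1* had 4 counts over all libraries. Control ATII CM replicate 2, the shallowest library, was the lowest of the 6 libraries for *MDM2*, *TP53INP1* and *ZMAT3*. Over all genes, chi-square per degree of freedom was 6.03 and 5.27 for its pairs with controls 1 and 3, and 2.12 between those. Leaving this library out raised the genes called across the table from 1090 to 1530. Results are therefore also given without it where that matters. Counts come from bulk RNA, where fewer cells that express a gene and less RNA per cell cannot be told apart.

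The DNA element that p53 is known to bind is shown first, because binding to it is how p53 acts on its direct targets. Sequences within 2500 bases on either side of each RefSeq transcription start (GRCh38.p14 table) were read from hg38 and searched for the p53 response element consensus, 20 bases made of a pair of adjacent 10-base half-sites, allowing 2 mismatches but none at the central C and G of a half-site. The consensus reads the same on both strands, so each search covers both. A match was found for 5 of the 6 members with a start that was searched (*MDM2*, *BTG2*, *GDF15*, *FAS* and *ZMAT3*). *MDM4* had none in this window. *TP53INP1*, *RRM2B* and *PHLDA3* had no entry. Of all 12336 tested genes with an entry, 4.42% held a match. Capitals in the following sequences mark bases that fit the consensus, and each is written 5′ to 3′ on the strand of its gene.
*ZMAT3*: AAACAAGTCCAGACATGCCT
*MDM2*: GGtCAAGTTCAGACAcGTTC
*FAS*: GGACAAGCCCtGACAAGCCa
*BTG2*: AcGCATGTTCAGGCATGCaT
*GDF15*: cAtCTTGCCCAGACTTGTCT

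The *ZMAT3* element (chr3:179070188-179070207, minus strand) fits the consensus at every base and lies in an intron of the gene. The *MDM2* element (chr12:68808923-68808942) lies in an intron, at position -94 from an internal start of the gene at 68809017. The *FAS* element (chr10:88991309-88991328) lies where an exon of *FAS* and an exon of *ACTA2*, which runs on the opposite strand, overlap in GENCODE. The *BTG2* element (chr1:203303642-203303661) is at position -1877 from the start, in an intron of the divergent transcript *BTG2-DT*, and the *GDF15* element (chr19:18385308-18385327) is at position -850 from the RefSeq start, in an intron of the longer *GDF15* gene of GENCODE. A stretch of the intron before the internal start of *MDM2*, ending at the base before the next exon, is shown (chr12:68808767-68809001, plus strand, 235 bases). The element is in capitals.
*MDM2* intron: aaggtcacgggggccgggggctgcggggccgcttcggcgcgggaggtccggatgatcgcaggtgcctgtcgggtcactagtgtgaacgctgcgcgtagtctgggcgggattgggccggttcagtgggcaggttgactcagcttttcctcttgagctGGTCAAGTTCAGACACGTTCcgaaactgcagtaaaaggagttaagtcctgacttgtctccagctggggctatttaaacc

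These are letter matches and say nothing of whether p53 was bound in these cells.

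Among the 9 genes, *TP53INP1* and *BTG2* rose in 4-OHT ATII CM, by 17.96% and 13.2%, and the other 7 did not pass the threshold. None of the 9 fell. The 2 that rose are 22.2% of the members, where 2.95% of all 19072 genes tested rose (adjusted p below 0.05, edgeR's quasi-likelihood test with Benjamini-Hochberg adjustment over all genes) and 5.72% were called in either direction. This share was not stable, since *BTG2* kept its call in 7 of 14 other settings, and *TP53INP1* in all 14. Over the members the log2 fold change, 4-OHT ATII CM against control ATII CM, had a median of 0.037, and of -0.0020 over all genes tested. It was above 0 for 6 members and below 0 for 3. In 3 members, *BTG2*, *TP53INP1* and *FAS*, every library of 4-OHT ATII CM lay above every control library, an order found for 11.7% of all genes tested. Groups that did not overlap in either direction made up 22.1% of them.

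**Figure D1:**
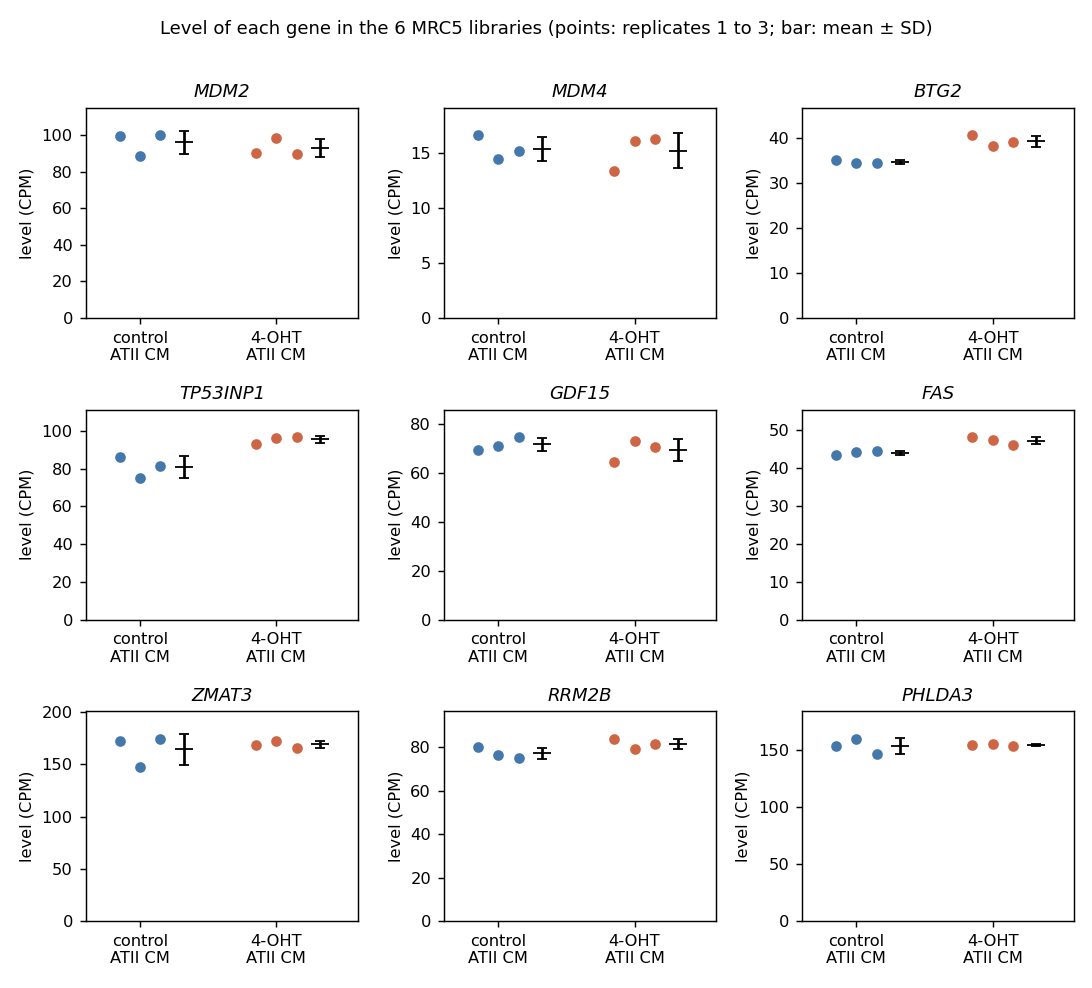
Level of each of the 9 genes in CPM (vertical axes, from 0) in the 3 control ATII CM and the 3 4-OHT ATII CM libraries. Points are replicates 1 to 3 from left to right, and bars give the mean and SD. In *BTG2*, *TP53INP1* and *FAS* the groups do not overlap, and in the other 6 genes they do.

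The inhibitors of p53 did not pass the threshold. *MDM2* (ENSG00000135679, chromosome 12, 68808176 to 68850686) was at 99.5, 88.7 and 99.7 CPM in replicates 1 to 3 of control ATII CM and at 90.1, 98.3 and 89.6 CPM with 4-OHT ATII CM. The groups overlapped over nearly their whole range. It differed by a log2 fold change of -0.053 (standard error, SE, 0.04998, adjusted p = 0.667), and its 95% interval reached from a level 10.4% lower (-10.4%) to one 3.80% higher. Without control replicate 2 the log2 fold change was -0.10 (SE 0.0409, adjusted p = 0.151). *MDM4* (ENSG00000198625, chromosome 1, 204516379 to 204558120) was at 16.6, 14.4 and 15.1 CPM with control ATII CM and at 13.3, 16.0 and 16.2 CPM with 4-OHT ATII CM. Its lowest and its next-to-highest value both came from 4-OHT ATII CM, and the log2 fold change was -0.015 (SE 0.0871, adjusted p = 0.957), with a wider interval of -13.0% to 12.5% at 258 to 427 counts a library. The sign of this value changed without control replicate 1 or without 4-OHT replicate 1.

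Per length of merged exons, *MDM2* was 4.97, 5.09 and 5.46 times as abundant as *MDM4* in control ATII CM and 5.599, 5.08 and 4.57 times in 4-OHT ATII CM. The log2 ratio was 2.37 ± 0.0705 (SD, n = 3) against 2.34 ± 0.146 (SD, n = 3), a difference of -0.029 that was smaller than the SD of either group. The exact two-sided permutation test gave p = 0.9, where 0.1 is the smallest that 3 libraries against 3 can give, so the test could not have passed 0.05. Of the 13284 exonic bases of *MDM2*, 9.21% are shared with exons of other genes. One is the gene of carboxypeptidase M on the opposite strand (133 bases), and the 2 unnamed others had no count in any library.

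*TP53INP1* (ENSG00000164938, chromosome 8, 94925972 to 94949411) encodes a stress protein that helps p53 and takes part in autophagy. It was at 86.1, 74.8 and 81.4 CPM with control ATII CM and at 93.2, 96.4 and 96.6 CPM with 4-OHT ATII CM. The values with 4-OHT ATII CM lay above all controls and close together, while the controls were more spread. *TP53INP1* rose by a log2 fold change of 0.24 (SE 0.0466, adjusted p = 0.00556). Without control replicate 2, the lowest library, it was 0.19 (adjusted p = 0.00289), and *TP53INP1* was called in all 14 other settings that were run, with an adjusted p of at most 0.0417.

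*BTG2* (ENSG00000159388, chromosome 1, 203305491 to 203309602) encodes an antiproliferative protein that recruits the CCR4-NOT complex to shorten the poly(A) tails of mRNAs. It was at 35.0, 34.4 and 34.5 CPM with control ATII CM and at 40.5, 38.2 and 39.0 CPM with 4-OHT ATII CM. The controls agreed to within 1 CPM, and the gap to 4-OHT ATII CM was wider than the spread of either group. The rise was a log2 fold change of 0.18 (SE 0.0466, adjusted p = 0.0333). The call was near the threshold. It was lost with DESeq2 (adjusted p = 0.0994) and when control replicate 1 or 3 or 4-OHT replicate 1, 2 or 3 was left out (adjusted p of 0.0728, 0.132, 0.113, 0.0677 and 0.128), but not without control replicate 2 (0.0416), and the log2 fold change stayed between 0.16 and 0.20 throughout.

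The related gene *BTG1* also rose, from 67.7 ± 2.41 CPM (SD, n = 3) with control ATII CM to 78.7 ± 1.51 CPM (SD, n = 3) with 4-OHT ATII CM, which is a log2 fold change of 0.22 (adjusted p = 0.00391). Of the 12 genes listed for the BTG and TOB family and the CCR4-NOT complex, it was the 1 that passed, where 5.72% of all genes tested were called and 2.95% rose. None fell. Of the others, *CNOT1*, the scaffold of the complex, had a log2 fold change of -0.081 and *TOB2* of 0.095.

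*FAS* (ENSG00000026103, chromosome 10, 88990582 to 89015785) encodes the death receptor that answers Fas ligand. It was at 43.4, 44.1 and 44.3 CPM with control ATII CM and at 48.1, 47.3 and 46.1 CPM with 4-OHT ATII CM, so that the groups did not overlap. The log2 fold change of 0.10 (SE 0.0419) had a p of 0.0296 before adjustment and of 0.216 after it in edgeR, and in none of the 14 other settings was *FAS* called. Exons of *FAS* share 380 of their 4253 bases (8.93%) with exons of *ACTA2*, the smooth muscle actin gene, on the opposite strand. *ACTA2* had 6774 to 10499 counts a library where *FAS* had 788 to 1212, and its level was 379.6 ± 11.1 CPM with control ATII CM and 399 ± 9.62 CPM with 4-OHT ATII CM (log2 fold change 0.072, adjusted p = 0.282). Whether counting used the strand is not given in the sources used here, so reads from the shared bases could have been assigned to neither gene or to the wrong one, and their part in the value of *FAS* was not tested.

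In the pathway downstream of *FAS*, 10 of 11 listed genes were tested and none was called with edgeR, where 5.72% of all genes tested were called. Without adjustment, *CASP8*, the initiator caspase, was the 1 gene of the list with a p below 0.05 (0.0347), at a log2 fold change of 0.16 and with overlapping groups, where 3306 of the 19072 genes tested had one. *CASP10*, a related caspase with 12 to 21 counts a library, was lower in every library of 4-OHT ATII CM than in every control, at a log2 fold change of -0.36 (SE 0.280, adjusted p = 0.582). The gene of Fas ligand, *FASLG*, had no count in any library. *CFLAR*, an inhibitor of caspase-8, was at 71.9 ± 2.32 CPM with control ATII CM and 71.7 ± 0.837 CPM with 4-OHT ATII CM.

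*PHLDA3* (ENSG00000174307, chromosome 1, 201464383 to 201469237) encodes a pleckstrin homology domain protein that competes with AKT for membrane lipids. It was at 153.8, 159.7 and 146.1 CPM with control ATII CM and at 154.4, 154.9 and 153.5 CPM with 4-OHT ATII CM. All 3 values of 4-OHT ATII CM lay inside the range of the controls, and the log2 fold change was 0.011 (SE 0.0382, adjusted p = 0.933), with a 95% interval of -4.76% to 6.61%. Its relative *PHLDA1*, which is not a member, did rise, from 308 ± 3.64 CPM to 377 ± 2.00 CPM (SD over 3 libraries each), which is a log2 fold change of 0.29 (SE 0.0303, adjusted p = 3.7e-05). *PHLDA2* had 5 counts over all libraries.

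*ZMAT3* (ENSG00000172667, chromosome 3, 179017223 to 179072279) encodes an RNA-binding zinc finger protein. It was at 171.8, 147.4 and 174.3 CPM with control ATII CM and at 168.6, 172.3 and 165.8 CPM with 4-OHT ATII CM. Control replicate 2 alone lay below the other 5 libraries. With that library the log2 fold change was 0.037 (SE 0.0513, adjusted p = 0.789), and it was -0.035 (adjusted p = 0.643) without it.

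*GDF15* (ENSG00000130513, chromosome 19, 18374731 to 18389176) encodes a secreted stress cytokine of the TGF-β superfamily, and it was at 69.1, 71.0 and 74.5 CPM with control ATII CM and at 64.2, 72.7 and 70.5 CPM with 4-OHT ATII CM. With overlapping groups, the log2 fold change was -0.047 (SE 0.0482, adjusted p = 0.693), with a 95% interval of -9.88% to 3.90%. Without 4-OHT replicate 1, its lowest library, the value was 0.0062. The gene of its receptor, *GFRAL*, had no count.

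*RRM2B* (ENSG00000048392, chromosome 8, 102204502 to 102239118) encodes p53R2, the small subunit of ribonucleotide reductase that supplies nucleotides outside S phase. Its levels were 80.2, 76.3 and 75.0 CPM with control ATII CM and 83.9, 79.2 and 81.5 CPM with 4-OHT ATII CM, and the groups overlapped in 1 pair of libraries. The log2 fold change of 0.079 (SE 0.0406, adjusted p = 0.346) did not pass. The S phase small subunit, *RRM2*, fell. It was at 29.99, 31.2 and 28.6 CPM with control ATII CM and at 21.01, 19.4 and 21.4 CPM with 4-OHT ATII CM, which is a log2 fold change of -0.54 (SE 0.0610, adjusted p = 7.66e-05).

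The balance of the small subunits can be read within each library. Per length, *RRM2B* was 2.57, 2.35 and 2.52 times as abundant as *RRM2* in control ATII CM and 3.83, 3.92 and 3.66 times in 4-OHT ATII CM. Each of the 3 ratios in 4-OHT ATII CM was above each of those in control ATII CM, and the log2 ratio differed by 0.62 (exact two-sided permutation test, p = 0.1, the smallest that 3 libraries against 3 can give). Adjusted over the 2 ratios compared, this p was 0.2. The large subunit *RRM1* was at 57.4 ± 1.51 CPM and 51.8 ± 3.81 CPM (adjusted p = 0.113).

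**Figure D2:**
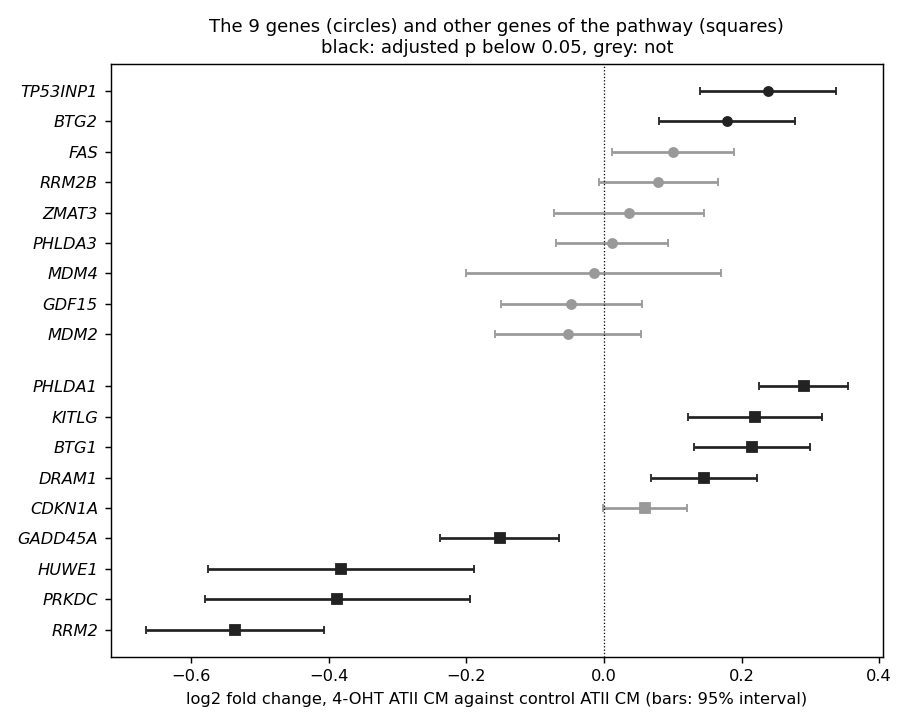
Log2 fold change, 4-OHT ATII CM against control ATII CM, with its 95% interval, of the 9 genes (circles) and of other pathway genes (squares). Squares are *CDKN1A*, which did not pass the threshold, and the pathway genes that did, leaving out the list of DREAM genes. Genes in black passed an adjusted p of 0.05. *TP53INP1* (0.24) and *BTG2* (0.18) lie to the right of 0, *MDM2* (-0.053) and *GDF15* (-0.047) lie near it, with intervals on both sides.

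Levels between genes are compared per length only, as CPM per 1000 bases of merged exons. *PHLDA3* was highest, at 48.8 ± 2.19 in control ATII CM (SD, n = 3), and *GDF15* followed at 34.3 ± 1.32. *ZMAT3* (17.1 ± 1.54), *TP53INP1* (14.2 ± 1.00), *RRM2B* (13.9 ± 0.491) and *BTG2* (12.6 ± 0.128) came next, and the ranges of neighbours in this stretch overlapped over the 6 libraries. *FAS* (10.3 ± 0.112), *MDM2* (7.23 ± 0.472) and *MDM4* (1.40 ± 0.0992) were the lowest, each with a range apart from the next. Merged exons count every annotated isoform, so a gene with exons that few of its transcripts carry comes out lower than its transcripts would. How far this holds for *MDM2*, with 13284 merged exonic bases, was not tested.

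Across the 6 libraries the profile of *MDM2* on the log2 CPM scale, centered on its own mean, was compared with 9201 other genes with a mean of at least 10 CPM. The nearest 5 were *TGFBR3*, *MCM3AP*, *BRF1*, *ABCC3* and *RABGGTA*, with root mean square differences of 0.0220, 0.0222, 0.0228, 0.0255 and 0.0270, where the median gene was at 0.0999 and a gene with no variation would be at 0.0745. None of these 5 was called, with log2 fold changes from -0.073 to -0.035. Of the other 8 members *ZMAT3* was nearest, at 0.0589, and *TP53INP1* was farthest, at 0.153. *BTG2* was next to it at 0.140. *ZMAT3* and *GDF15* (0.0722) were the 2 of these 8 that lay nearer to *MDM2* than a gene with no variation would.

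A wider list of 48 targets that p53 is known to raise was read from the same test. Of these, 2 rose, 1 fell and 45 did not pass, a share of calls near the 5.72% of all genes tested. The median log2 fold change was 0.034 against -0.0020 over all genes, and 29 values were above 0 and 19 below. Among the 39 with an entry in the promoter table outside chromosome 8, 35.9% held a p53 response element match by the rule given for the members. *KITLG*, the ligand of the receptor KIT, rose from 85.6 ± 5.54 CPM with control ATII CM to 99.9 ± 2.41 CPM with 4-OHT ATII CM (SD over 3 libraries each), which is a log2 fold change of 0.22 (adjusted p = 0.00844), and was called in all 14 other settings. *DRAM1*, a lysosomal membrane protein that promotes autophagy, rose from 165 ± 5.99 CPM to 182 ± 2.22 CPM (log2 fold change 0.15, adjusted p = 0.0273). *GADD45A*, a growth arrest gene, fell from 112 ± 4.43 CPM to 101 ± 3.00 CPM (log2 fold change -0.15, adjusted p = 0.0377). *DRAM1* lost its call when any library but control replicate 2 was left out, and *GADD45A* when control replicate 1 or any library of 4-OHT ATII CM was (adjusted p of 0.0585 to 0.182 in these). *GADD45A* also lost it in libraries thinned to the same depth (adjusted p = 0.0591). The list held 7 called genes without control replicate 2, where 1530 of 18682 genes tested were called. It held 1 without control replicate 1 or without any one library of 4-OHT ATII CM, where 533 to 799 genes were called.

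*CDKN1A*, which encodes p21, had the highest level per length of that list, 397 ± 12.6 CPM per 1000 bases with control ATII CM and 413 ± 3.50 with 4-OHT ATII CM. It was at 1210.1 ± 38.3 CPM with control ATII CM and 1261 ± 10.7 CPM with 4-OHT ATII CM. For this gene the log2 fold change was 0.060 (SE 0.0287, adjusted p = 0.301) and the groups overlapped. *TNFRSF10B*, a death receptor for TRAIL, and *PLK2*, a stress-induced kinase, had log2 fold changes of 0.021 and -0.050 (adjusted p = 0.825 and 0.519).

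Of 29 genes that act on p53, 2 fell and none rose, where 5.72% of all genes tested were called and 2.76% fell. The median log2 fold change of the list was -0.062, against -0.0020 over all genes. *PRKDC*, the catalytic subunit of DNA-dependent protein kinase, was at 131, 92.9 and 133 CPM with control ATII CM and at 92.2, 92.4 and 89.0 CPM with 4-OHT ATII CM (log2 fold change -0.39, adjusted p = 0.0182). *HUWE1*, a large ubiquitin ligase, was at 159.8, 111.5 and 155.4 CPM and at 105.1, 110.0 and 113.0 CPM (log2 fold change -0.38, adjusted p = 0.0197). In both genes control replicate 2 lay at the level of 4-OHT ATII CM and not of the other controls, and neither was called with DESeq2 (adjusted p = 0.117 and 0.127). *PRKDC* kept its call without control replicate 2 and lost it without any other library (adjusted p of 0.0562 to 0.0982). *HUWE1* kept it without control replicate 2 or 4-OHT replicate 3 and lost it without any of the others (0.0830 to 0.0982). Over all 14 other settings the log2 fold changes ran from -0.53 to -0.31 for *PRKDC* and from -0.53 to -0.29 for *HUWE1*. Without control replicate 2 the list held 7 called genes, all lower, where 1530 of 18682 genes tested were called, 834 of them lower. It held none without control replicate 3, 4-OHT replicate 1 or 4-OHT replicate 2, where 663, 786 and 533 genes were called. The ribosomal proteins RPL5 and RPL11, which bind MDM2, had genes with log2 fold changes of 0.0095 and 0.00064.

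The genes that p53 is known to lower through p21 and the DREAM complex, which drive S phase and mitosis, had the median farthest from 0 of these lists. Of 20 listed genes 19 were tested, 18 of them fell and none rose, where 2.76% of all genes tested fell, and the median log2 fold change was -0.48. Leaving out 1 library gave 15 to 18, where 533 to 1530 genes were called across the table. In all 19 every library of 4-OHT ATII CM lay below every control library, an order found for 10.4% of all genes. *FOXM1*, a transcription factor of the G2 phase, fell from 31.0 ± 1.41 CPM to 22.0 ± 1.73 CPM (log2 fold change -0.50, adjusted p = 0.000232), and *CCNB1*, cyclin B1, from 45.1 ± 5.76 CPM to 31.2 ± 0.162 CPM (log2 fold change -0.53, adjusted p = 0.000336). *CDK1*, its kinase partner, had a log2 fold change of -0.48 and *AURKB*, a mitotic kinase, of -0.69. The 1 tested gene that did not pass was *CDC25A*, a phosphatase that activates CDKs, at a log2 fold change of -0.37 (adjusted p = 0.0732). The part of p53, p21 or DREAM in these values was not tested.

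**Figure D3:**
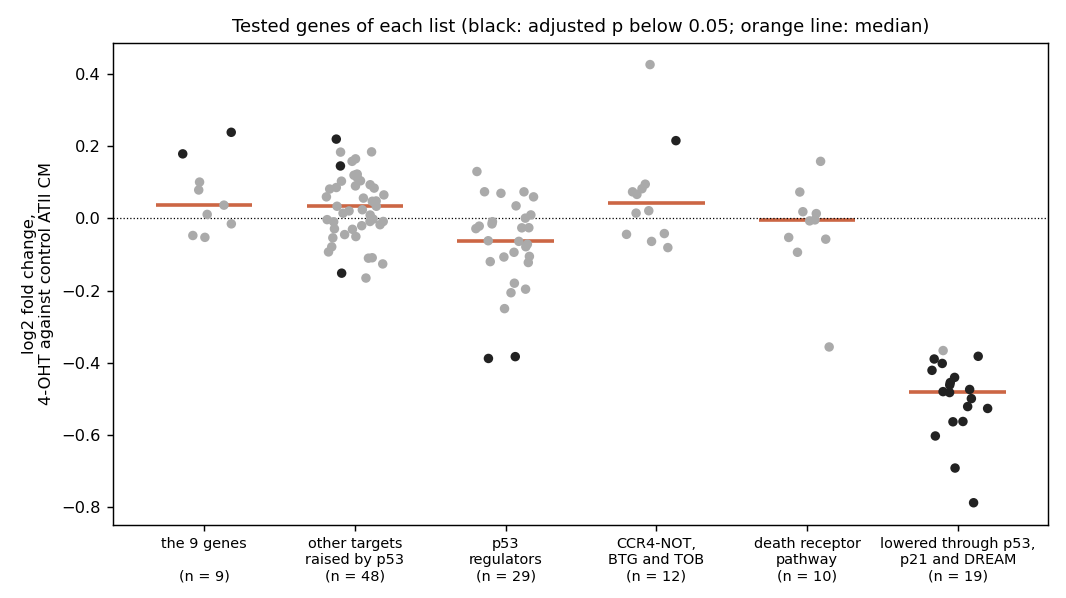
Log2 fold change, 4-OHT ATII CM against control ATII CM, of each tested gene in 6 lists (columns, with the number of genes under each). Black points passed an adjusted p of 0.05, grey points did not, and orange lines are medians. The 9 genes and the 48 other targets center near 0 (0.037 and 0.034). The 19 genes that p53 is known to lower through p21 and DREAM lie between -0.79 and -0.37.

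The dependence of the 9 values on single libraries and on the test was followed gene by gene. The log2 fold changes of *TP53INP1*, *BTG2*, *FAS* and *RRM2B* stayed above 0 and that of *MDM2* stayed below 0 in all 14 other settings, with ranges of 0.19 to 0.28, 0.16 to 0.20, 0.089 to 0.11, 0.052 to 0.11 and -0.10 to -0.028. Those of *MDM4*, *GDF15*, *ZMAT3* and *PHLDA3* crossed 0 in at least 1 setting.

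**Figure D4:**
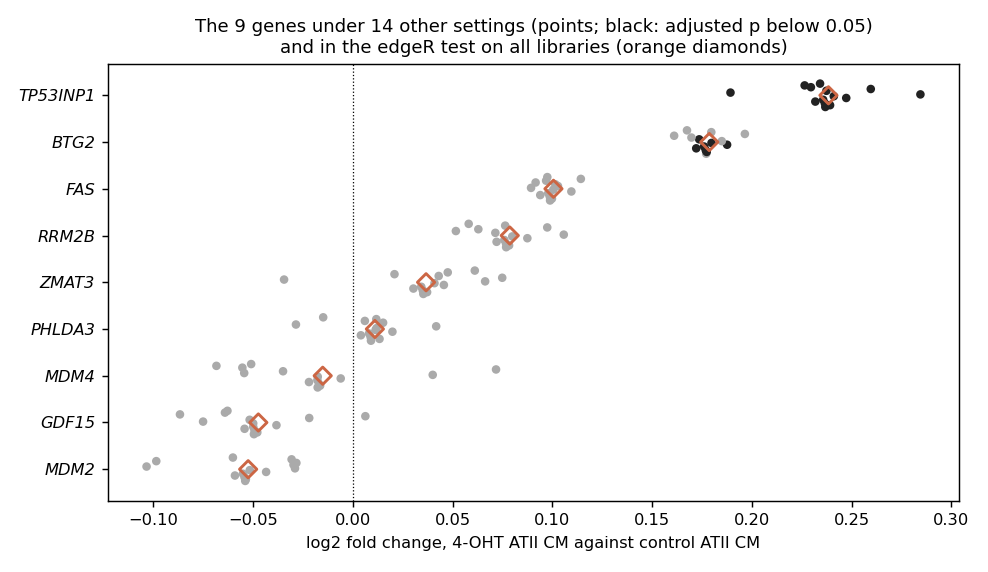
Log2 fold change of the 9 genes (horizontal axis) in the edgeR test on all 6 libraries (orange diamonds) and in 14 other settings (points, black where the adjusted p was below 0.05). All 14 points of *TP53INP1* are black and 7 of 14 are for *BTG2*, and no other gene has a black point.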

How the data were processed

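RNA-Seq was performed on 3 libraries of MRC5 cells in control ATII CM and 3 in 4-OHT ATII CM. After trimming by Trim Galore, the authors aligned reads to GRCh38 (HISAT2 2.1.0) and deposited raw counts per gene from featureCounts 1.6.5, with the length of each gene's merged exons. The annotation release and the strand and multi-mapping settings are not given in the sources used here. The table has 58721 lines for 58676 identifiers. The counts of 45 identifiers listed on both X and Y were added. Symbols and exons came from GENCODE.

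Genes with at least 10 counts over the 6 libraries entered edgeR's quasi-likelihood test (edgeR 4.0.16 in R 4.3.3) after TMM normalization, group being the only term. Standard errors were derived from the fold change and F statistic, and intervals are 95%. CPM are counts over the library total times its TMM factor, and log2 CPM used a prior count of 2. DESeq2 1.42.0, limma-voom (limma 3.58.1), other normalizations and filters, a replicate block, thinned libraries and leaving out each library were alternatives. Fits were tested on simulated data. Depth of 17691849 to 26389449 counts, and a typical variation between replicates of 4.36% beyond counting noise, set the precision.

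The members, gene lists and tests were chosen with earlier results of these data known. Text names the 9 genes, list genes past the threshold (of the 18 that passed among the DREAM genes, examples), up to 4 abundant ones per list, and the 5 genes nearest to *MDM2*. *CASP8*, *CASP10* and *CDC25A* were named after their values were seen. *FASLG*, *GFRAL* and *PHLDA2* are named as listed genes with too few counts to be tested. Results for some genes of the rule are not reported here.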

Additional observations from a re-analysis of the deposited data

How the results depend on the processing

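Of the 19072 genes tested, 1090 were called. Leaving out 1 library gave 533 to 1530, the highest without control ATII CM replicate 2. It gave 663, 533 and 615 without control ATII CM replicate 3, 4-OHT ATII CM replicate 2 and 4-OHT ATII CM replicate 3. The 2 members called, *BTG2* and *TP53INP1*, became 1, *TP53INP1*, with DESeq2, and 1 to 2 without single libraries. The 26 pathway genes called became 19 to 37 without single libraries, and 18 of these 26 were called in each of their 14 alternatives, none with another sign. Values that changed sign were small and not called. Without single libraries the log2 fold change ran from -0.068 to 0.072 for *MDM4*, -0.087 to 0.0062 for *GDF15*, -0.035 to 0.075 for *ZMAT3* and -0.029 to 0.042 for *PHLDA3*, which was -0.015 in thinned libraries. *BTG2* also lost its call in thinned libraries (adjusted p = 0.100). With the replicate block 985 genes and both members were called. Deviations of libraries with the same replicate number were correlated at -0.0145, -0.104 and -0.0931, so the numbers were not taken to pair libraries. With 258 to 427 counts a library, *MDM4* had the widest interval of the members.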
